A study of Mus musculus with 96 samples.

Results

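The 8 genes described here encode receptors of the metabotropic glutamate (mGlu) and GABA-B families and are 8 of 38887 genes in an expression table of single neurons of the mouse lateral superior olive (LSO), an auditory brainstem nucleus. They were taken by symbol: the mGlu genes Grm5, Grm2, Grm3, Grm4, Grm7 and Grm8, and the GABA-B genes Gabbr1 and Gabbr2. Other mGlu genes were not analysed here. Brainstem slices came from C57BL/6J mice of both sexes at postnatal day 11 ± 1, and the labels name no treatment. Each neuron was recorded, its cytoplasm was sucked into the patch pipette and 1 library was made from it (Patch-seq). The sample labels sort neurons by firing pattern into principal neurons (pLSOs) of the Onset type (41), pLSOs of the Sustained type (11) and lateral olivocochlear neurons (LOCs) with Delayed firing (28). Beside these 80 neurons stand 8 negative controls, for which a pipette only touched the slice. Of 96 libraries, 8 were left out, 6 labelled as neurons and 2 as controls, by a list taken over from an earlier comparison of the labels with supplementary tables of the study, which hold means over its expression clusters. Which libraries were kept thus depended in part on a clustering of these same libraries, and for receptor shares, and for mean ratios of pLSOs to LOCs, values with all 96 are given where they change a call or turn a direction. Pathway genes and mean ratios of Onset to Sustained neurons were not computed with all 96. No label names an animal, so each class counts as 1 sample, no test was run, and intervals cover counting error over neurons only.

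Metabotropic receptors signal through G proteins rather than through a pore of their own. Group I mGlu receptors, here Grm5 (mGlu5), couple to Gq, phospholipase C and release of calcium through the IP3 receptor, and they mostly lie around excitatory synapses on the postsynaptic side. Group II (Grm2 and Grm3, mGlu2 and mGlu3) and group III (Grm4, Grm7 and Grm8) couple to Gi and Go and lower cAMP; many of them sit on axon terminals, where they reduce transmitter release. The GABA-B receptor is an obligate pair, in which the product of Gabbr1 binds GABA and that of Gabbr2 brings the pair to the surface and engages the G protein, which opens GIRK potassium channels and closes calcium channels. LSO neurons compare excitation from one ear with inhibition from the other, and these receptors are known to tune both inputs. Grm3, Grm5 and Gabbr1 are also expressed by astrocytes.

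Before the receptors are compared, the scale of the table has to be known, because it decides what a value is worth. The values are TPM, which scale each library to one common sum of transcripts, rounded to whole numbers. Down the table, the length by which the reads of a gene were divided rose steadily from 1 base and was not that of the gene: Grm3, in row 657, has 3049 bases of exons and was divided by 4. For Gabbr1 (row 4518, 7764 bases of exons) the divisor was 48, and for Gabbr2 (row 11706, 6686 bases) it was 519. The divisors were measured from the 4 shallowest negative controls, in which most positive rows hold a single read. With them, 98.6% of the low values in the first 1600 rows of the median neuron were whole numbers of reads, within the rounding of 0.5 TPM plus 0.01 reads. The worth of 1 read was chosen to make this share high, so the share describes a fit. In rows held out from that choice, the median over the 80 neurons was 100% and the lowest 90.5%. The divisors of Gabbr2, Grm5, Grm7 and Grm4 lie in later rows and had no such check. The 80 neurons thus held between 149276 and 2732681 reads on genes, with medians of 690635 in pLSOs and 498697 in LOCs; the 8 controls held 1970 to 115126.

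One read was therefore worth a median of 13 TPM for Grm3, 1.27 TPM for Grm2, 1.13 TPM for Grm8 and 1.08 TPM for Gabbr1. For the other 4 genes it was worth less than the rounding could show, namely 0.100 TPM for Gabbr2, 0.0726 TPM for Grm5, 0.0628 TPM for Grm7 and 0.0590 TPM for Grm4. To be listed at 1 TPM, the threshold for detection, a gene needed 1 read in the median neuron for Grm3, Grm2, Grm8 and Gabbr1, but 5.5 for Gabbr2, 7 for Grm5, 8.5 for Grm7 and 9 for Grm4. Shares of neurons are thus not comparable between genes, and between classes of neurons for 1 gene only with a limit. Among neurons, the reads needed ran from 2 to 41 for Grm5 and from 2 to 51 for Grm4. For Grm7 and Gabbr2 they ran from 2 to 48 and from 2 to 30. At a divisor of 1, the median worth of 1 read was higher for LOCs (61.8 TPM) than for pLSOs (41.4 TPM). The median LOC could thus list these 4 genes from fewer reads. The part of this in the class differences was not tested. For comparisons between genes, 2 other scales are given. RPM is the reads of a gene scaled to the same sum of reads in each library, with no length, and rescaled values are those divided by the gene's own exon length. A common floor of 50 RPM was applied, above what 1 TPM is worth for any of the 8 genes in any neuron.

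Class markers were looked at as a description, since the choice of libraries had used a clustering. The 5 pLSO markers (Spp1, Kcnh7, Maf, Igsf3 and Tenm2) were detected in 61.5 to 96.2% of pLSOs and 3.57 to 28.6% of LOCs, and 4 of them in controls, Spp1 in 50% of these. The 5 LOC markers (Calca, Ucn, Isl1, Nxph1 and Col4a3) were detected in 67.9 to 92.9% of LOCs, and 4 of them, all but Isl1, in controls. Ucn, Isl1 and Col4a3 were at 0 in all 52 pLSOs, whereas Calca was found in 28.8% of pLSOs and 62.5% of controls. With all 96 libraries as labelled, Spp1 was found in 91.1% of pLSOs and 10% of LOCs, Ucn in 1.79% and 83.3%, and Calca in 33.9% and 93.3%. Marker lists of other cells were not empty. All 7 astrocyte genes were found in some pLSOs and 5 in LOCs (Gja1 and Aldh1l1 were at 0 there), with a summed level of 0 to 2737 RPM in pLSOs (median 111), 0 to 2407 in LOCs (median 169) and 0 to 14607 in the controls (median 506). The 5 oligodendrocyte genes summed to medians of 1821 in pLSOs, 3097 in LOCs and 33016 in the controls.

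Transcripts of the 8 receptor genes were sparse. In no class was a gene listed in more than 54.5% of neurons, and in only 2 of the 8 negative controls was any of them found, Grm2 in 1 and Gabbr1 in another. Above the common floor, Grm7 was held by 22.5% of the 80 neurons, Grm5 by 18.8% and Gabbr2 by 13.8%. Gabbr1 and Grm3 were held by 12.5% each, Grm8 by 6.25%, Grm4 by 2.5% and Grm2 by 1.25%. The floor asks the same RPM of each gene and makes no allowance for exon length, 3049 bases for Grm3 and 10247 for Grm5. Between pLSOs and LOCs, 1 of 8 genes differed by the size rule of 20 percentage points: Grm3, which was more frequent in LOCs. Over all 10319 genes found in at least 5% of neurons, 8.70% differed by as much, 5.46% towards pLSOs and 3.25% towards LOCs. The median difference over the 8 receptor genes was -6.04 points (pLSO minus LOC), against 2.20 points over all genes. Between Onset and Sustained neurons, Grm3 and Grm5 passed the rule, both more frequent in Sustained neurons. There, 14.0% of all genes passed, 3.22% towards Onset and 10.7% towards Sustained neurons.

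**Figure D1:**
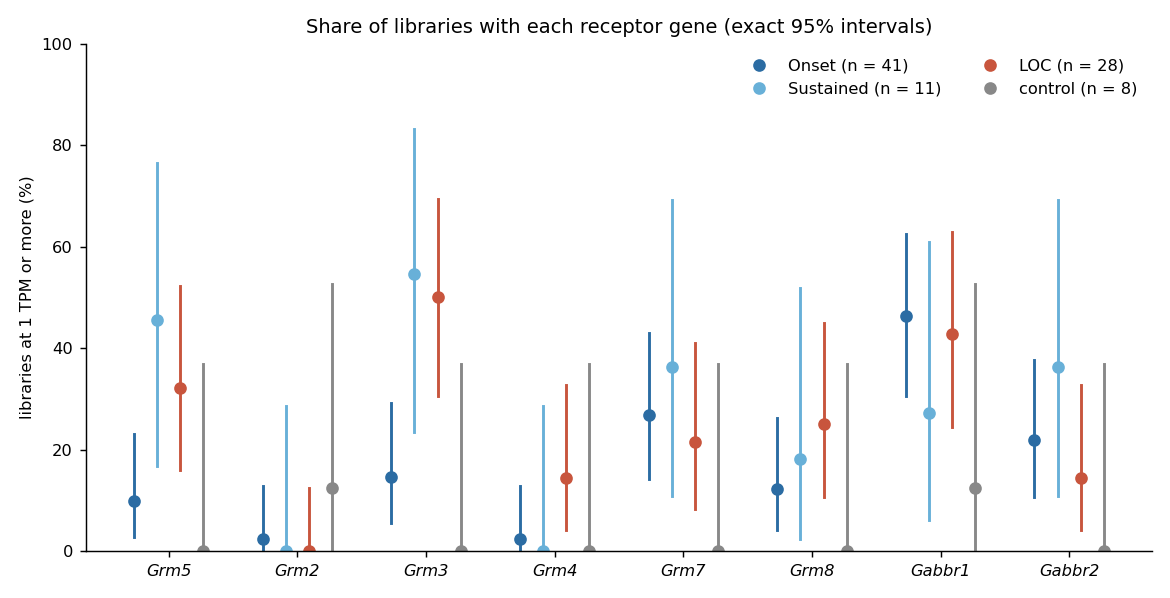
Share of libraries (percent, vertical axis) in which each receptor gene was listed at 1 TPM or more, by class; lines are exact 95% intervals. Grm3 and Grm5 stand at 54.5% and 45.5% in Sustained neurons and at 14.6% and 9.76% in Onset neurons, with overlapping intervals.

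Grm5, the only group I gene here, was more frequent in LOCs and Sustained neurons than in Onset neurons. It lies on chromosome 7 of GRCm38 from 87584168 to 88134907 on the plus strand (ENSMUSG00000049583). It was detected in 4 of 41 Onset neurons (9.76%, 95% interval 2.72 to 23.1%), 5 of 11 Sustained neurons (45.5%, 16.7 to 76.6%) and 9 of 28 LOCs (32.1%, 15.9 to 52.4%). Together, pLSOs reached 17.3% (9 of 52, 8.23 to 30.3%), so that the difference to LOCs, -14.8 points, stayed under the size rule. All 8 kept controls were at 0, which allows a share of up to 37.5%. Grm5 was also listed in 3 left-out libraries, labelled as a control, a LOC and a Sustained neuron, at up to 19 TPM.

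Per neuron, listed Grm5 values ranged from 0 to 10 TPM in Onset neurons, 0 to 37 TPM in Sustained neurons and 0 to 27 TPM in LOCs, with a median of 0 in each class. Thus the classes overlapped, and most neurons of each were at 0. The means were 1.75 ± 5.74 TPM (SD, n = 52) in pLSOs and 2.79 ± 5.95 TPM (n = 28) in LOCs, 1.59-fold higher in LOCs. Within pLSOs, Sustained neurons had 5.73 ± 11.1 TPM and Onset neurons 0.683 ± 2.40 TPM, a ratio of 8.39 that was 5.78 without the highest neuron of each. Where Grm5 was listed, which took 7 reads in the median neuron, the medians were 92, 100 and 64 reads in Onset, Sustained and LOC neurons. At the common floor of 50 RPM, 7.32% of Onset neurons, 36.4% of Sustained neurons and 28.6% of LOCs held Grm5.

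Of the group II genes, Grm3 was more frequent in LOCs and Sustained neurons than in Onset neurons, whereas Grm2 was nearly absent. Grm2 (ENSMUSG00000023192, chromosome 9 from 106643095 to 106656082, minus strand) was listed in 1 of 52 pLSOs, an Onset neuron with 47 TPM or 35 reads, and in 0 of 28 LOCs, which allows a share of up to 10.7%. The only other library with Grm2 was a negative control with 5 reads.

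Grm3 (ENSMUSG00000003974, chromosome 5 from 9485541 to 9725170, minus strand) was detected in 14 of 28 LOCs (50%, 95% interval 30.6 to 69.4%) and 12 of 52 pLSOs (23.1%, 12.5 to 36.8%), a difference of -26.9 points. The pLSOs were not uniform. Grm3 was found in 6 of 41 Onset neurons (14.6%, 5.57 to 29.2%) and 6 of 11 Sustained neurons (54.5%, 23.4 to 83.3%), and in 0 of the 8 kept controls. It was also listed in 2 left-out libraries, labelled as a control and as an Onset neuron, at up to 1497 TPM.

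The listed values ranged from 0 to 178 TPM in Onset neurons (median 0), from 0 to 2091 TPM in Sustained neurons (median 38) and from 0 to 16740 TPM in LOCs (median 3.5). High values thus occurred in LOCs and Sustained neurons but not in Onset neurons, although zeros were found in all classes. In reads, the 6 positive Onset neurons held 1, 1, 2, 3, 4 and 19. The 6 positive Sustained neurons held 6, 10, 41, 58, 111 and 272. In the 14 positive LOCs there were 1 to 1785 reads, with a median of 23. At the common floor, which is passed by none of 41 Onset neurons (a share of up to 7.32%), Grm3 was held by 36.4% of Sustained neurons and 21.4% of LOCs. The difference between pLSOs and LOCs was then -13.7 points and no longer past the size rule, against -15.1 points for Grm5 on the same scale.

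Mean Grm3 levels were 1346 ± 3646 TPM (SD, n = 28) in LOCs and 108 ± 393 TPM (n = 52) in pLSOs, 12.5-fold higher in LOCs. This was the only one of 6 receptor genes with more than 3 positive neurons in both classes that passed 2-fold, as 37.7% of 5946 such genes in the table did. A single LOC contributed much of the mean, which was 776 TPM without it; pLSOs without their highest neuron had 68.9 TPM, and the ratio became 11.3. In RPM the ratio was 12.2. Sustained neurons had 484 ± 766 TPM and Onset neurons 6.90 ± 28.5 TPM. Without the Sustained neuron that had the most detected genes of all (6276), Grm3 was found in 50% of Sustained neurons. With all 96 libraries, the difference in share was -23.5 points between pLSOs and LOCs and -34.1 points between Onset and Sustained neurons.

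Markers of glia were set beside Grm3, since astrocytes also express it. The summed astrocyte genes had medians of 98.9, 157 and 169 RPM in Onset, Sustained and LOC neurons, in the same order as the Grm3 means. Over the 28 LOCs, Spearman's rho between Grm3 and the astrocyte sum was -0.03, and with the number of reads it was 0.35. The most widespread gene of a list was also taken, in each class by itself, so it can be another gene in another class. For the 3 oligodendrocyte precursor genes it reached 36.4% of Sustained neurons, 12.2% of Onset neurons and 17.9% of LOCs. For the 5 microglia genes it reached 45.5%, 21.95% and 35.7%. The part of these cells in the Grm3 values was not tested.

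**Figure D2:**
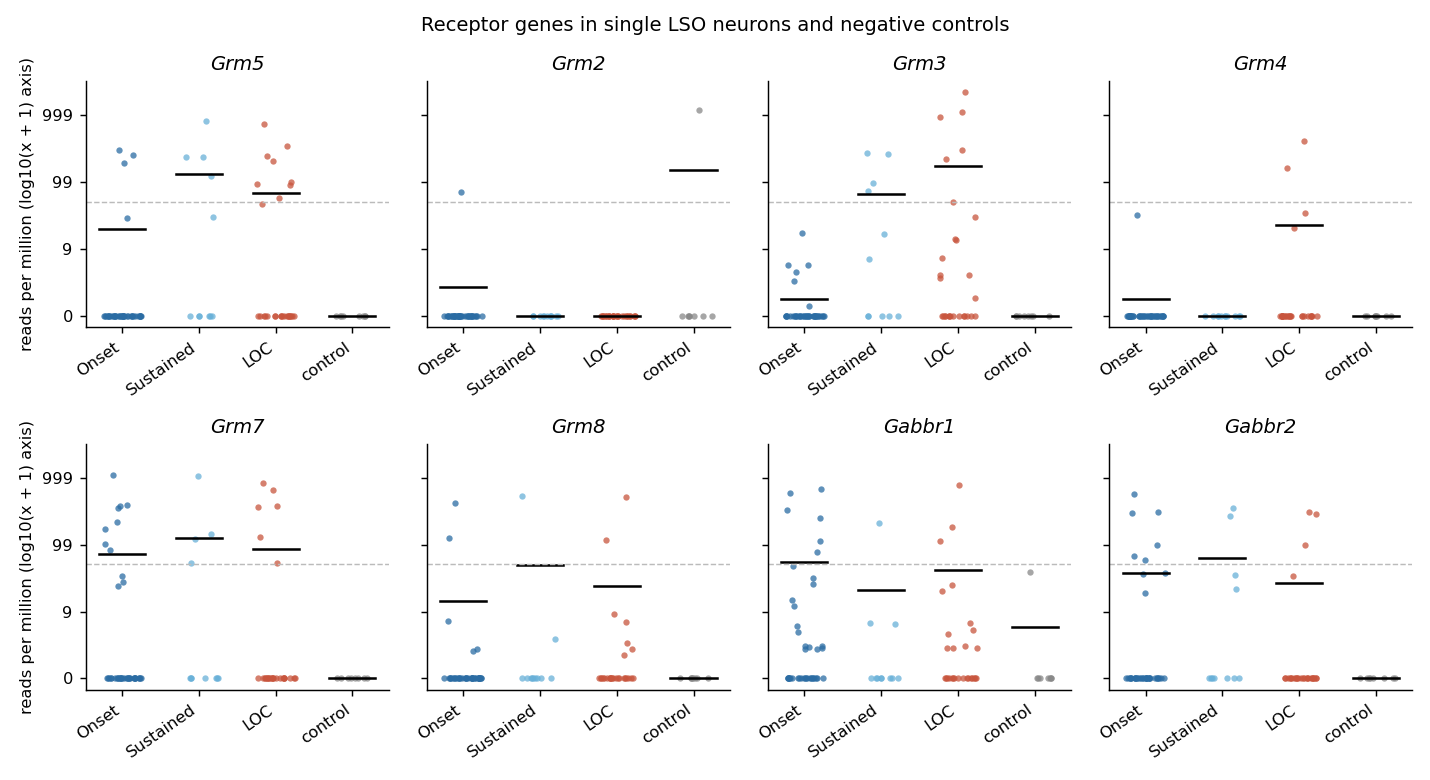
RPM of each receptor gene in every library (vertical axis log10(x + 1)); bars are class means and the dashed line is the common floor of 50. For Grm3, all Onset neurons lie under the floor, while 4 Sustained neurons and 6 LOCs lie above it.

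Among the group III genes, Grm7 had the highest mean per length, Grm8 occurred mostly as a few reads, and Grm4 was rare. Grm7, known for its place in the active zone of axon terminals and its low affinity for glutamate, lies on chromosome 6 from 110645581 to 111567230 on the plus strand (ENSMUSG00000056755). It was detected in 15 of 52 pLSOs (28.8%, 17.1 to 43.1%) and 6 of 28 LOCs (21.4%, 8.30 to 40.95%). Onset neurons reached 26.8% and Sustained neurons 36.4%.

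Listed Grm7 values ranged from 0 to 38 TPM in Onset and in Sustained neurons and from 0 to 31 TPM in LOCs, with medians of 0 throughout. The classes thus covered the same range. Its means were 2.81 ± 7.80 TPM in pLSOs against 3.39 ± 8.46 TPM in LOCs, and in RPM they were 82.1 and 86.3, a ratio of 1.05. With all 96 libraries the order turned, and the mean in pLSOs was 1.78-fold that in LOCs. The reads behind a detected value were the most of all 8 genes, with medians of 127 in pLSOs and 293 in LOCs. However, Grm7 was listed only from 8.5 reads in the median neuron, so lower counts could not appear among its detections in such a neuron. The lowest detection was 7 reads in pLSOs and 26 in LOCs. Most of these detections also passed the common floor, which 23.1% of pLSOs and 21.4% of LOCs did.

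Grm8 (ENSMUSG00000024211, chromosome 6 from 27275119 to 28135178, minus strand) is a presynaptic receptor of high glutamate affinity. Unlike Grm7, it was listed from 1 read in the median neuron, so that low counts could appear. It was detected in 7 of 52 pLSOs (13.5%, 5.59 to 25.8%) and 7 of 28 LOCs (25%, 10.7 to 44.9%), but the median detection was 3 reads in pLSOs and 2 in LOCs. A few neurons had far more, up to 335 TPM in Onset neurons, 298 TPM in Sustained neurons and 354 TPM in LOCs. Those neurons set the means, 13.6 ± 62 TPM in pLSOs against 15.6 ± 67.5 TPM in LOCs, and without the highest neuron of each class 7.29 and 3.07 TPM were left, so that the order of the classes turned. Only 5.77% of pLSOs and 7.14% of LOCs held Grm8 above the common floor.

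Grm4 (ENSMUSG00000063239, chromosome 17 from 27422387 to 27521403, minus strand) was listed in 4 of 28 LOCs (14.3%, 4.03 to 32.7%), at up to 14 TPM or 329 reads, and in 1 of 52 pLSOs (1.92%, 0.0487 to 10.3%), at 1 TPM. Because 1 TPM of Grm4 needs 9 reads in the median neuron, lower levels could not be detected in such a neuron.

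Both GABA-B genes were found in pLSOs and in LOCs, and neither passed a size rule between them in the 80 neurons. Gabbr1 (ENSMUSG00000024462, chromosome 17 from 37045966 to 37075067, plus strand) was detected in 22 of 52 pLSOs (42.3%, 28.7 to 56.8%) and 12 of 28 LOCs (42.9%, 24.5 to 62.8%). Onset neurons held it in 46.3% (19 of 41, 30.7 to 62.6%) and Sustained neurons in 27.3% (3 of 11, 6.02 to 61.0%), 19.1 points apart and just under the rule. Without the Sustained neuron of most detected genes this difference was 26.3 points and past it. One of 8 controls listed Gabbr1, with 3 reads.

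Values of Gabbr1 ranged from 0 to 334 TPM in Onset neurons, 0 to 119 TPM in Sustained neurons and 0 to 421 TPM in LOCs, with a median of 0 in each. The means were 26.5 ± 73.9 TPM in pLSOs against 23 ± 81.8 TPM in LOCs. Without the highest neuron of each class they were 20.5 and 8.26 TPM, which passes 2-fold, and so does the ratio of 2.30 with all 96 libraries. In LOCs the median detection was 3 reads and in pLSOs 12, and the common floor was passed by 13.5% of pLSOs and 10.7% of LOCs. Over the 52 pLSOs, Gabbr1 and the summed astrocyte genes had a Spearman's rho of 0.46, whereas over the 28 LOCs it was -0.07. A part of astrocyte RNA in the Gabbr1 values was not tested.

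Gabbr2 (ENSMUSG00000039809, chromosome 4 from 46662305 to 46991873, minus strand) was detected in 13 of 52 pLSOs (25%, 14.0 to 38.9%) and 4 of 28 LOCs (14.3%, 4.03 to 32.7%), a difference of 10.7 points that was 6.55 points with all 96 libraries and turned to -1.10 points at a threshold of 5 TPM. No control listed it. Its values ranged from 0 to 26 TPM in Onset neurons, 0 to 24 TPM in Sustained neurons and 0 to 21 TPM in LOCs, again with medians of 0 and overlapping classes. The means were 2.19 ± 5.84 TPM in pLSOs and 1.54 ± 4.76 TPM in LOCs, 1.43-fold higher in pLSOs. Without the highest neuron of each class they were 1.73 and 0.815 TPM, which passes 2-fold.

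As listed, Gabbr1 stood 12.9-fold above Gabbr2 over the 80 neurons. In RPM, for which the measured divisors were multiplied back to give reads, the ratio was 1.23. After rescaling to the exon length of each gene it was 1.01. Both ratios rest on the measured divisors, 48 for Gabbr1 and 519 for Gabbr2, and that of Gabbr2 had no check. The rescaled means were 16.6 ± 50.9 for Gabbr1 and 16.3 ± 45.4 for Gabbr2 (SD, n = 80). By class, the rescaled ratio of Gabbr1 to Gabbr2 was 0.917 in pLSOs and 1.29 in LOCs, and it was 1.22 in Onset and 0.297 in Sustained neurons. Single neurons weighed on these ratios. Without the highest neuron of each gene, LOCs had 5.13 for Gabbr1 and 6.97 for Gabbr2, so that the order turned. The pLSOs then had 13.2 and 14.1, Onset neurons 14.4 and 10.1, and Sustained neurons 0.415 and 15.5. Of 11 Sustained neurons, 3 listed Gabbr1 and 4 Gabbr2. Equal means did not come from equal neurons. Both subunits were listed in 7 of 52 pLSOs (13.5%, 5.59 to 25.8%) and 2 of 28 LOCs (7.14%, 0.877 to 23.5%), where the product of the 2 single shares is 10.6% and 6.12%. Over all neurons, 25 listed Gabbr1 alone, 8 Gabbr2 alone and 38 neither. Listing took 1 read for Gabbr1 but 5.5 for Gabbr2 in the median neuron, which favours neurons with Gabbr1 alone. At the common floor there were 10 neurons with Gabbr1 and 11 with Gabbr2, of which 4 had both. The product of the single shares was not computed at this floor.

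The number of the 8 receptor genes listed per neuron ranged from 0 to 5. Its mean was 1.54 ± 1.34 (SD, n = 52) in pLSOs and 2 ± 1.25 (n = 28) in LOCs, a difference smaller than the spread between neurons. Onset neurons had 1.37 ± 1.22 and Sustained neurons 2.18 ± 1.60, and the controls had 0.250 ± 0.463. None of the 8 genes was listed in 13 pLSOs (25%) and 3 LOCs (10.7%). The median number of all detected genes was 2394 in LOCs and 2560.5 in pLSOs. Spearman's rho between the number of detected genes and the number of receptor genes was 0.38 over pLSOs and 0.23 over LOCs. Within pLSOs it was 0.32 over Onset and 0.59 over Sustained neurons. The number also adds genes that are listed from different numbers of reads. The part of library depth in the class difference was not tested.

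For the mGlu genes alone, at least 1 was listed in 51.9% of pLSOs and 82.1% of LOCs, and at least 2 in 25% and 39.3%. Within pLSOs, at least 1 was listed in 43.9% of Onset and 81.8% of Sustained neurons. Grm3 and Grm5 occurred together in 1 Onset neuron, 4 Sustained neurons and 3 LOCs. The product of the single shares was not computed for this pair. Among the Sustained neurons with both were those with 6276 and 4751 detected genes.

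**Figure D3:**
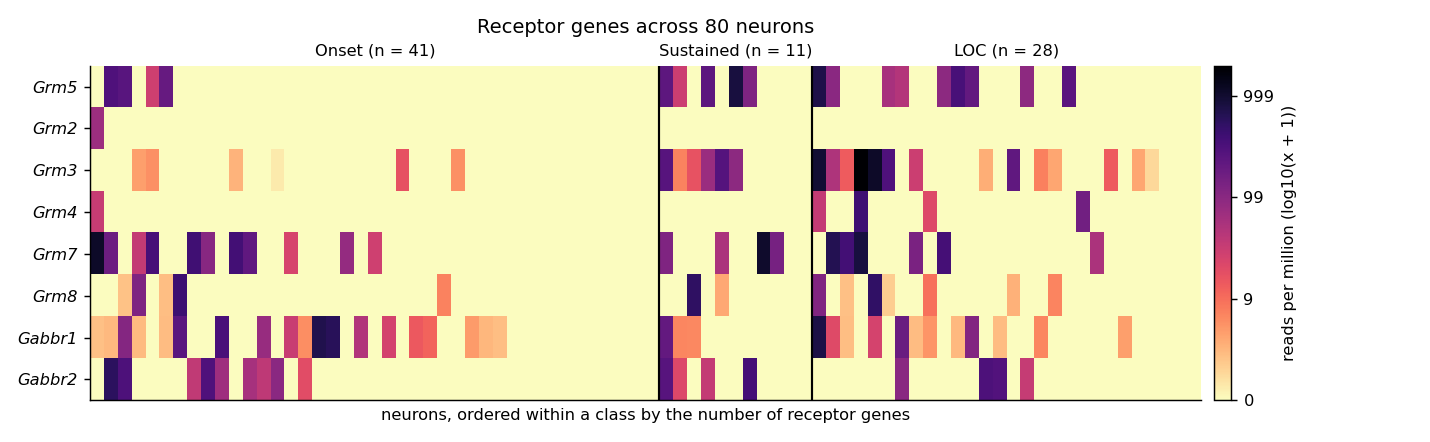
Receptor genes (rows) in the 80 neurons (columns, sorted within a class by the number of receptor genes), coloured by RPM on a log10(x + 1) scale. Most neurons hold 0 to 2 of the 8 genes, and the darkest Grm3 cells are in LOCs.

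Between genes, levels were compared per length. After rescaling to the own exon length, Grm3 had the highest mean over the 80 neurons (79.8 ± 345), followed by Grm7 (49.5 ± 137), Gabbr1 (16.6), Gabbr2 (16.3) and Grm5 (15.8 ± 44.7). Grm8 (6.92 ± 30.9), Grm4 (4.58 ± 28.6) and Grm2 (0.728) were lowest. Every SD exceeded its mean, so no neighbours in this order differ beyond their spread. As listed, the means of Grm3 and Grm7 were 541 and 3.01 TPM, far wider apart than after rescaling. Without the highest neuron of each gene, Grm3 had 47.7 and Grm7 40.1.

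The order depended on the class. In LOCs, Grm3 led with a rescaled mean of 200 ± 566, Grm7 followed with 49.8 ± 129, and Grm5 had 20.4 ± 45.9. In pLSOs, Grm7 led with 49.3 ± 143, and Gabbr2 (18.6), Gabbr1 (17.1), Grm3 (14.8) and Grm5 (13.4) lay close together. At the common floor, Grm7 was the most widespread receptor gene in pLSOs (23.1%) and Grm5 in LOCs (28.6%). This order makes no allowance for exon length, which is longest for Grm5 and shortest for Grm3.

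**Figure D4:**
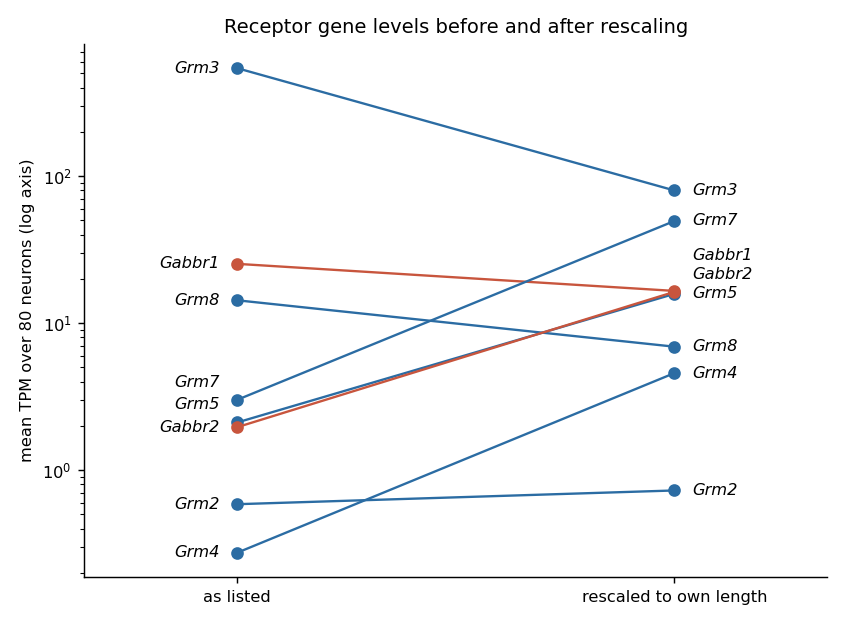
Mean level of each receptor gene over 80 neurons (log axis, TPM), as listed and after rescaling to the exon length of the gene; red marks the GABA-B genes. Gabbr1 and Gabbr2 stand at 25.3 and 1.96 TPM as listed and at 16.6 and 16.3 after rescaling.

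The signalling partners of these receptors were examined through 35 genes in 8 lists. By the size rule, 4 were more frequent in pLSOs and 1 in LOCs, and 30 did not pass, with a median difference of 0.275 points (pLSO minus LOC). This share of genes past the rule can be read against the 8.70% of all genes given above. The largest difference was that of Itpr1, the IP3 receptor through which Gq-coupled receptors release calcium. It was detected in 24 of 52 pLSOs (46.2%, 32.2 to 60.5%) and 1 of 28 LOCs (3.57%, 0.0904 to 18.3%), with means of 20.3 ± 43.1 and 0.214 ± 1.13 TPM.

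Itpr1 also differed within pLSOs, with 53.7% of Onset and 18.2% of Sustained neurons. Grm5, which signals through the same path, had the reverse order in shares, being least frequent in Onset neurons. Plcb4, a phospholipase C that acts downstream of Gq, was found in 28.8% of pLSOs (17.1 to 43.1%) and 50% of LOCs (30.6 to 69.4%). It was also found in 4 of 8 controls (50%), the same share as in LOCs. Plcb1 did not pass, with 25% of pLSOs and 32.1% of LOCs.

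Of the 3 KCTD genes, whose products attach to the Gabbr2 subunit and shape the time course of GABA-B responses, Kctd16 was found in 12 of 52 pLSOs (23.1%, 12.5 to 36.8%) and in 0 of 28 LOCs, which allows a share of up to 10.7%. Kctd8 was found in 13.5% and 10.7% and Kctd12 in 3.85% and 3.57%. The GIRK subunits did not pass: Kcnj3 was found in 19.2% of pLSOs and 32.1% of LOCs, Kcnj9 in 7.69% and 10.7%, and Kcnj6 was listed at 0 in all neurons.

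Rgs4, which speeds the turn-off of Gi and Gq signals, was detected in 17 of 52 pLSOs (32.7%, 20.3 to 47.1%) and 1 of 28 LOCs (3.57%, 0.0904 to 18.3%), and in 1 of 8 controls. Shank2, a scaffold that links mGlu5 through Homer to the postsynaptic density, was found in 38.5% of pLSOs (25.3 to 53.0%) and 17.9% of LOCs (6.06 to 36.9%). With the common floor the Shank2 difference was 12.1 points, and those of Itpr1, Rgs4, Kctd16 and Plcb4 were 28.8, 25.3, 19.2 and -18.7 points, so that only Itpr1 and Rgs4 still passed. Of 7 G protein alpha subunits none passed, with Gnao1 in 51.9% and 46.4% and Gnaq in 36.5% and 39.3% of pLSOs and LOCs.

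Between Onset and Sustained neurons, 5 of the 35 genes passed, close to the 14.0% of all genes that did. Itpr1 was more frequent in Onset neurons, by 35.5 points. Gnaq, Plcb4, Homer1 and Rgs7 were more frequent in Sustained neurons, with differences (Onset minus Sustained) of -22.8, -32.6, -20.4 and -30.8 points, where 10.7% of all genes lay that way. At the common floor these 4 differences were -1.11, -5.99, -0.443 and -8.43 points.

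**Figure D5:**
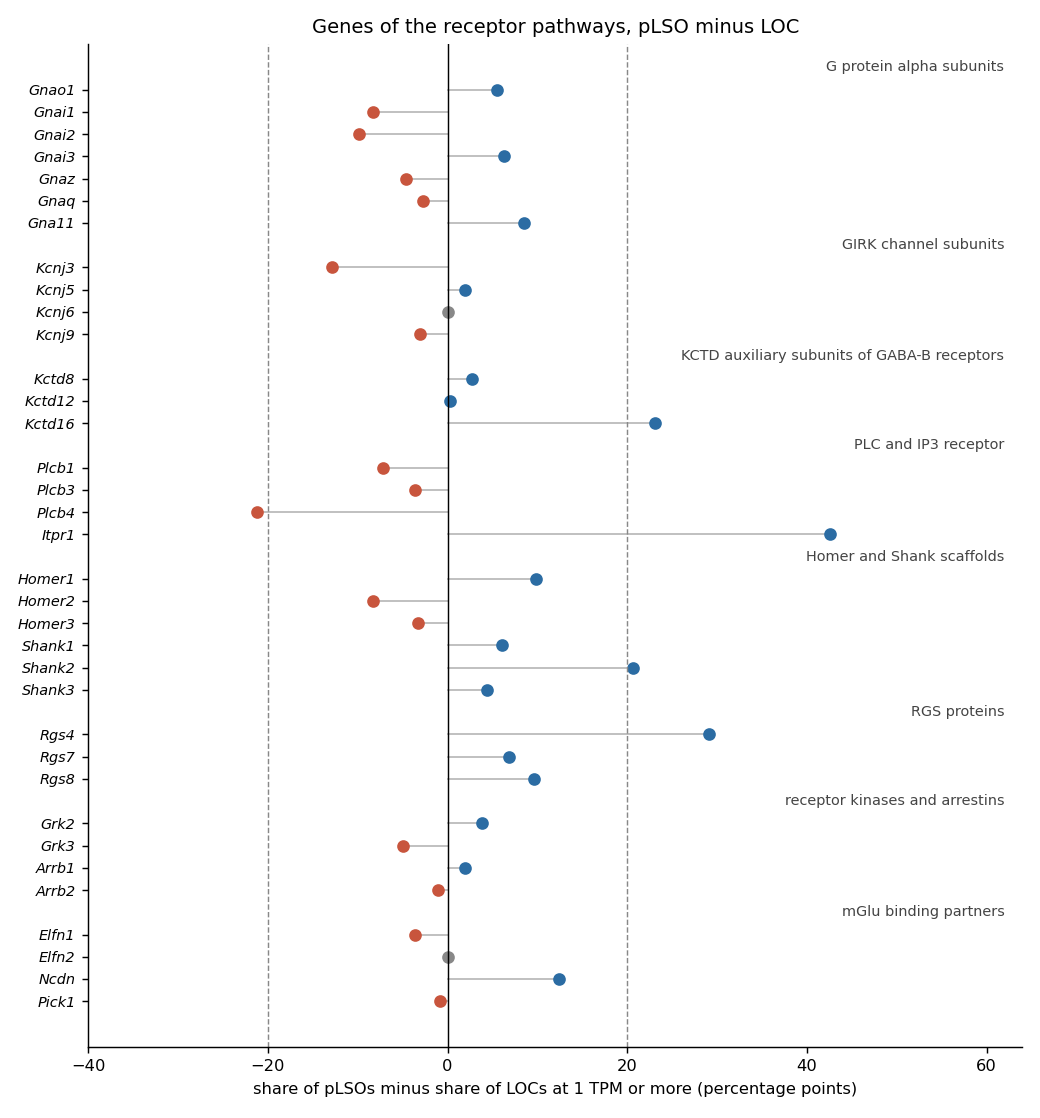
Difference in the share of neurons (pLSO minus LOC, percentage points) for 35 pathway genes grouped by function; dashed lines mark the size rule of 20 points. Itpr1 stands at 42.6, Rgs4 at 29.1, Kctd16 at 23.1, Shank2 at 20.6 and Plcb4 at -21.2 points.

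The 3 receptor genes found in at least 25% of neurons were also compared with 3814 other genes of that kind across the 80 neurons. The genes most like Grm3 by Spearman's rho were Rsf1 (0.42), Lypd1 (0.41) and Exoc6b (0.40). Those most like Grm7 were Rbm42 (0.48), Wasl (0.44) and Dclk1 (0.43), and those most like Gabbr1 were Nckap1 (0.42), Ap3b2 (0.40) and Srpk2 (0.39). These are the highest of many weak values in sparse data, in which depth differs between neurons, and are given as a description.

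With the recorded physiology the receptor genes showed little relation. Spearman's rho with resting potential, input resistance, sag and the amplitudes of spontaneous EPSCs and IPSCs was computed within a class for each gene found in at least 25% of it. The 35 values lay between -0.41 and 0.26, and 1 exceeded 0.3 in size, that of Grm8 with the resting potential over 19 LOCs.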

How the data were processed

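LSO neurons were recorded in slices and aspirated, and libraries were made by a modified Smart-seq2 protocol. Per the submitters' processing notes and the methods of the study, reads were checked (FastQC), trimmed (Trim Galore 0.4.2), aligned to mm10 (STAR), marked for duplicates (Picard 1.115) and assigned to genes of an earlier Gencode release (featureCounts). The score values deposited by the authors are TPM, rounded; per library their sum lies from 999773 to 1000026. Every column was mapped to a sample by its title.

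Names, positions (GRCm38, the same build as mm10) and exon lengths were taken from Gencode vM21, which has a length for 37570 of 38887 genes. The divisor of each row was measured from the 4 shallowest negative controls by the value of 1 read, with later rows from 3 of them, and the worth of 1 read in a library from rows 1 to 1600. Both steps were tested on simulated data, and so was the size rule. In another control the check on rows held out failed (4.76% of 21 low values were whole); it lists none of the 8 receptors. Divisors under 100 are whole; later ones are interpolated. Reads are PCR copies without molecular identifiers, and their numbers were derived here. Intervals cover counting error only. Because a class counts as 1 sample, no count model was fitted. RPM, the common floor, leaving out the Sustained neuron of most genes, and class markers over all 96 libraries were chosen after seeing the data.

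The genes named are the 8 receptors, 35 pathway genes (1 other is not reported here), of which those past the size rule and examples of the rest are given, and the 3 genes most like each receptor held by 25% of neurons. Members, lists and left-out libraries were chosen with earlier results of these data known. Shares carry exact Clopper-Pearson 95% intervals, and a share of 0 the limit of 3 over n. Alternatives were other thresholds (2, 5 and 10 TPM), all 96 libraries, neurons with 2000 genes or more, other means and other size rules. Calculations used Python 3.11.15, NumPy 2.4.6, pandas 2.3.3, SciPy 1.17.1, scikit-learn 1.9.0 and matplotlib 3.10.9.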

Additional observations from a re-analysis of the deposited data

Results flagged for a closer look

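Among the 8 negative controls, 1 library stood far from the other 7 for each of the 2 receptor genes found there. Grm2 was listed at 928 TPM in 1 control, which is 5 reads, and Gabbr1 at 29 TPM in another, which is 3 reads; the other controls were at 0 for both. With zeros in all other controls, the rule for outliers marks any single positive library, so the marking adds nothing to the values.

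The 8 libraries that were left out held receptor transcripts above the level of the kept controls. The highest values there were 1993 TPM for Gabbr1 (in 6 of the 8 libraries), 1497 TPM for Grm3 (2 libraries), 176 TPM for Grm7 (3 libraries), 23 TPM for Grm8 (1 library), 19 TPM for Grm5 (3 libraries) and 7 TPM for Gabbr2 (1 library). One of these libraries labelled as negative controls held Grm5 and 1 held Grm3. Grm2 and Grm4 were listed at 0 in all 8. The values of Gabbr1 and Grm7 exceed those of every kept neuron.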

How the results depend on the processing

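No paired analysis was possible because no test was run and replicate numbers only name libraries. Of 104 alternative values for the share differences, 93 kept their direction, and of 36 for ratios of means, 32 did. Grm3 alone differed by 20 points between pLSOs and LOCs at every TPM threshold, with all 96 libraries and in neurons with 2000 genes; no gene did at 50 RPM (0) or a rule of 30 points (0), and 5 did at 10 points. Between Onset and Sustained neurons the count of 2 became 1 at 10 TPM, 4 at a rule of 10 points, and 3, with Gabbr1, both in neurons with 2000 genes (22.9 points) and without the Sustained neuron of most genes (26.3 points). Means of pLSOs and LOCs were 2-fold apart for 1 gene. This became 2 with the mean of log2(TPM + 1), 3 with a pseudocount of 0.1, 4 without the highest neurons, 2 with all 96 libraries and 2 at 1.5-fold. The cause was not tested. Without a filter, or with genes in 25% of neurons, the share of all genes past the rule was 5.77% and 16.7% between pLSOs and LOCs (3.62% and 11.7% towards pLSOs, 2.15% and 4.95% towards LOCs) and 9.33% and 21.8% between Onset and Sustained neurons (2.13% and 6.26% towards Onset). The direction of the Gabbr1 share, -0.549 points, turned at 2, 5 and 10 TPM and at 50 RPM (2.20, 5.22, 1.37 and 2.75 points), that of Gabbr2 at 5 TPM (-1.10) and that of Grm7 at 10 TPM (-4.67). Between Onset and Sustained neurons, Grm7 turned at 10 TPM (0.665), and Grm4 became 0 at 2, 5 and 10 TPM and at 50 RPM. Of the pLSO over LOC ratios of means, that of Grm7 turned with the mean of log2(TPM + 1) (1.022), a pseudocount of 0.1 (1.23) and all 96 libraries (1.78), and that of Grm8 without the highest neurons (2.37). Depth limits Grm5, Grm7, Grm4 and Gabbr2, whose low levels round to 0.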
